A study of Mus musculus with 23 samples.

Results

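Potassium channel genes were taken as the protein-coding genes of GENCODE M21 whose symbol starts with Kcn, which gave 94 genes of 21938 on chromosomes 1 to 19, X and Y. They lay on 19 chromosomes, 2 of them on the X, and 10 had the transcription start site (TSS) of another protein-coding gene within 10 kb. All cells came from the cerebral cortex of mouse embryos of the line Tg(Ebf2-EGFP)FB58Gsat, in which regulatory sequence of the Ebf2 gene drives EGFP. The 4 cell groups were the Ebf2-EGFP- cells of E11.5, described by the study as mostly neural progenitors, and the Ebf2-EGFP+ cells of that stage, of E13.5 and of E15.5. The EGFP+ gate holds preplate neurons early on and mainly Cajal-Retzius (CR) neurons later, and sorted cells of both gates carried the transgene. Of 23 libraries, 15 were ChIP of H3K27ac or H3K27me3 and 8 were input, and each cell group and mark was deposited as 1 list of peaks, H3K27ac in EGFP- cells from 1 library and the others from 2.

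A member was called marked in a list when a peak lay within 5 kb of its TSS, the 5′ end of the gene. Acetylation of lysine 27 of histone H3 (H3K27ac) is found at active promoters and enhancers, and trimethylation of the same lysine (H3K27me3) is the mark of Polycomb silencing. Because each group came as a single list, replicate spread could not be measured, lists were not tested against each other, and depth is unknown. The intervals given are Wilson 95% intervals for counting over genes only. The share over all 21938 genes is the background against which each count of members is read. In sorted cells a mark in fewer cells and a weaker mark per cell cannot be told apart.

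Potassium channels let potassium leave the cell and so set the resting potential, end the action potential and pace repetitive firing. Progenitor cells rest on leak and inward rectifier channels, and neurons add voltage-gated channels as their spikes become faster and more regular. The Kcn symbol covers pore-forming subunits opened by voltage (Kcna, Kcnb, Kcnc, Kcnd, Kcnh and Kcnq), modifier subunits that open only together with others (Kcnf, Kcng, Kcns and Kcnv), inward rectifiers (Kcnj), tandem-pore leak channels (Kcnk), channels opened by calcium or sodium (Kcnma, Kcnn, Kcnt and Kcnu), and auxiliary proteins (Kcnab, Kcne, Kcnip, Kcnmb and the soluble regulator Kcnrg).

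Sequence before the start is shown for 6 members picked, with their peaks known, to stand for the patterns described below. In the pair Kcnc1 and Kcnc2 the first gene had H3K27ac at every EGFP+ stage and the second at none, and the pair Kcnj4 and Kcnj16 divided in the same way. Kcnh7 had H3K27ac at E15.5 alone and Kcnip2 at E13.5 alone. Each run is the 250 bases before the RefSeq start in GRCm38.p6, 5′ to 3′ on the strand of the gene, with CpG dinucleotides in capitals.
Kcnc1, chr7:46396218-46396467, plus strand: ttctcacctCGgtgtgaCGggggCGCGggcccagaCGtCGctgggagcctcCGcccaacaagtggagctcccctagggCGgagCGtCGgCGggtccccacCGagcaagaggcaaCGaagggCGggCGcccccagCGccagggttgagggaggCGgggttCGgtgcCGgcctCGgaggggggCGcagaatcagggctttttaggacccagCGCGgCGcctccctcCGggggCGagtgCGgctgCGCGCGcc
Kcnc2, chr10:112270871-112271120, plus strand: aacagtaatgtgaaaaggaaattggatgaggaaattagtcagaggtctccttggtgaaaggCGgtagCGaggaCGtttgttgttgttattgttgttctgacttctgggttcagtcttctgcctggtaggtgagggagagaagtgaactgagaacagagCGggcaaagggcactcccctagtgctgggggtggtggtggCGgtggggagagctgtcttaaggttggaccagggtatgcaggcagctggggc
Kcnj4, chr15:79505242-79505491, minus strand: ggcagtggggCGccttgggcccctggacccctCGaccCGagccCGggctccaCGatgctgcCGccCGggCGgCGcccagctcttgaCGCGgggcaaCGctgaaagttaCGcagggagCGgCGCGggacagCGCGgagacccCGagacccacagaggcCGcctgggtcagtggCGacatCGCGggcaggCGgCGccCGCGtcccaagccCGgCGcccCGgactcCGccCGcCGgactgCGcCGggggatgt
Kcnj16, chr11:110967783-110968032, plus strand: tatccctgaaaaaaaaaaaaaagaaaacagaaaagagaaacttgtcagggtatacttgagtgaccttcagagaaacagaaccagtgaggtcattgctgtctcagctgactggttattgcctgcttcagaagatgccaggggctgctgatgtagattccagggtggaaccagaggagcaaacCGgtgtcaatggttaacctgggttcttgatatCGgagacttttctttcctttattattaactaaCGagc
Kcnh7, chr2:63184288-63184537, minus strand: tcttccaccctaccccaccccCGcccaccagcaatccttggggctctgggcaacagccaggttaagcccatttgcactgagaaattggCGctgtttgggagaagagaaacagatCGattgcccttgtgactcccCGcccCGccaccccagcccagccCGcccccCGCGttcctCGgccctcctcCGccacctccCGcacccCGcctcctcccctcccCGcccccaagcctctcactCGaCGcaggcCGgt
Kcnip2, chr19:45816064-45816313, minus strand: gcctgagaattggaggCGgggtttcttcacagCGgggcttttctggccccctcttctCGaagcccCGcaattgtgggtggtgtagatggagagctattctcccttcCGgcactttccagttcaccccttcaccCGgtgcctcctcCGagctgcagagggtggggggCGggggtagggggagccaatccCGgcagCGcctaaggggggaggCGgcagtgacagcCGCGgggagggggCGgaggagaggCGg
The runs of Kcnc1 and Kcnj4 held 30 and 35 CpG dinucleotides, those of Kcnc2 and Kcnj16 held 5 and 3, and those of Kcnh7 and Kcnip2 held 16 and 15. In these pairs, picked with their peaks known, the acetylated member was the CpG-rich one.

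The lists were first checked against genes whose state is known. Of 10 pan-neuronal markers, 7, 7 and 9 had H3K27ac in EGFP+ cells in order of stage, from E11.5 to E15.5, and of 9 CR markers 8, 9 and 7 did. In EGFP- cells H3K27ac marked 0 of the pan-neuronal and 3 of the CR markers. Of 8 progenitor markers 5, 6 and 4 were acetylated in EGFP+ cells and 0 in EGFP- cells, and of 10 blood and vessel markers 1, 4 and 1 in EGFP+ cells and 0 in EGFP- cells. In several lists the marked genes were not those the mark is known for. The H3K27ac list of EGFP- cells held 1386 peaks, against 37055, 102881 and 25793 in EGFP+ cells by stage, and marked 2 of 76 ribosomal protein genes, which every cell transcribes. The H3K27me3 list of EGFP- cells marked 44 of these 76 genes (57.9%), as well as 28 of 39 Hox genes (71.8%), which are silent in the cortex, so a peak in it did not tell a silent gene from an active one. The H3K27ac list of E13.5 marked 38 of the 39 Hox genes (97.4%), against 15 at E11.5 and 13 at E15.5. The H3K27me3 list of E11.5 EGFP+ cells marked 0 of the 39 Hox genes and 4 of the 76 ribosomal protein genes. The H3K27me3 lists of E13.5 and E15.5 marked 24 and 7 of the Hox genes. These gene families were chosen after the lists had been seen. All lists are called by their labels below, and whether a library was exchanged or weakly enriched was not tested. A count in the lists named here is thus of listed peaks and not of genes known to be active or silent. The part of list length and of these departures in the results for the channel genes was not tested.

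In E11.5 Ebf2-EGFP- cells, 0 of the 94 members had an H3K27ac peak, against 4.17% of all genes. A count of 0 of 94 allows a share of up to 3.19% when 3 counts are taken as its limit, and the Wilson interval ran from 0 to 3.93%. H3K27me3 lay at 60 members in the same cells (63.8%, interval 53.8 to 72.8%), against 48.2% of all genes. The other 34 members had neither mark, and none had both (3.42% of all genes).

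In Ebf2-EGFP+ cells between 50 and 72.3% of the members were acetylated, depending on the stage. H3K27ac marked 47 members at E11.5 (50%, interval 40.1 to 59.9%), against 49.9% of all genes. It marked 68 members at E13.5 (72.3%, interval 62.6 to 80.4%), against 60.9%. At E15.5 it marked 48 members (51.1%, interval 41.1 to 60.9%), against 52.3%. Of these 3 lists the background lay outside the interval of the members at E13.5 alone, in the longest list. With a window of 1 kb it lay inside there too (48 members, 51.1%, interval 41.1 to 60.9%, all genes 44.5%).

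H3K27me3 was rarer in the EGFP+ lists. It marked 6 members at E11.5 (6.38%, interval 2.96 to 13.2%), against 4.92% of all genes. It marked 18 members at E13.5 (19.1%, interval 12.5 to 28.3%), against 9.31%, and 1 member at E15.5 (1.06%, interval 0.188 to 5.78%), against 1.06%. The background lay below the interval at E13.5, and inside it with a window of 1 kb (8.51%, interval 4.38 to 15.9%, all genes 5.34%), with peaks of at least 300 bp (1.06% against 0.62%) and with lists of equal length (3.19% against 2.68%). The lists themselves held 48963 H3K27me3 peaks in EGFP- cells and 6387, 6721 and 1438 in EGFP+ cells by stage. Between E11.5 and E13.5 the lists were of similar length, while marked members went from 6 to 18 and all genes from 4.92% to 9.31%. The part of list length in these counts was not tested.

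**Figure D1:**
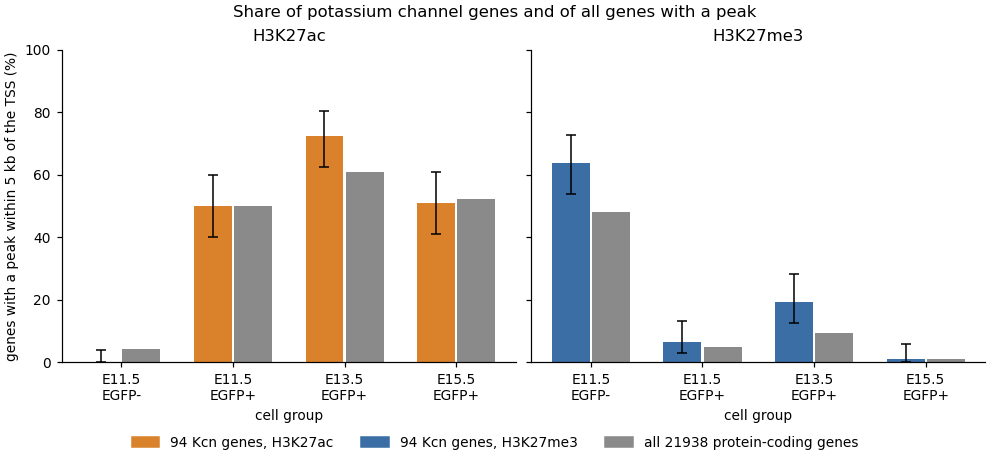
Share of genes (%) with a peak within 5 kb of the TSS in each cell group, for H3K27ac (left) and H3K27me3 (right). Coloured bars are the 94 Kcn genes with Wilson 95% intervals (counting over genes only) and grey bars all 21938 protein-coding genes. No Kcn gene had H3K27ac in EGFP- cells, and the coloured bar of H3K27me3 stood above the grey one in EGFP- cells (63.8% against 48.2%) and at E13.5 (19.1% against 9.31%).

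H3K27ac of EGFP+ cells was listed at a larger share of the members with H3K27me3 in EGFP- cells than of those without. Of the 60 members, 37 had H3K27ac at E11.5 (61.7%, interval 49 to 72.9%), against 72.3% of all genes with that H3K27me3. Of the 34 members without it, 10 did (29.4%), against 29.1% of all genes without it. At E13.5 the counts were 52 of 60 (86.7%, interval 75.8 to 93.1%, all genes 82.2%) and 16 of 34 (47.1%, all genes 41.2%). At E15.5 the counts were 36 of 60 (60%, interval 47.4 to 71.4%, all genes 73%) and 12 of 34 (35.3%, all genes 33%). Members with H3K27me3 in EGFP- cells thus stood below the background at E11.5 and E15.5 and above it at E13.5, and their interval held it at E11.5 and E13.5. The difference between marked and unmarked genes was present over all genes too. In 29 of the 37 members the H3K27me3 peak of EGFP- cells and the H3K27ac peak of E11.5 EGFP+ cells overlapped by at least 1 bp (78.4%, interval 62.8 to 88.6%), against 75.1% of all genes in both lists.

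Over the 3 EGFP+ stages 82 members had H3K27ac at least once. It was present at all 3 stages in 30 members (31.9%), against 33.1% of all genes. Of these 30, 26 had H3K27me3 in EGFP- cells, and the share over all genes of that pattern was not computed. Among genes with H3K27ac at any stage, that H3K27me3 lay at 57 of 82 members and at 10048 of 16330 over all genes. Acetylation throughout was the commonest pattern, as it was over all genes. It was present at E11.5 and E13.5 in 11 members (11.7%, all genes 7.43%), at E13.5 and E15.5 in 8 (8.51%, all genes 8.15%), and at E11.5 and E15.5 in 2, among them Kcnk3 (2.13%, all genes 6.93%). It was present at E11.5 alone in 4 members (4.26%, all genes 2.48%), at E13.5 alone in 19 (20.2%, all genes 12.3%) and at E15.5 alone in 8 (8.51%, all genes 4.09%). It was absent from all 3 lists in 12 members (12.8%, interval 7.46 to 21%), against 25.6% of all genes. For this last pattern the background lay above the interval of the members, and for E13.5 alone (interval 13.3 to 29.4%) below it. From E11.5 to E15.5 the peak was kept by 32 of 47 members (68.1%, interval 53.8 to 79.6%), against 80.2% of all genes, and lost by 15. It was gained by 16 of the other 47 (34%, interval 22.2 to 48.3%), against 24.4%. In 25 of the 32 the summed width was larger at E15.5 (78.1%, interval 61.2 to 89%), as in 82.5% of all genes in both lists.

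**Figure D2:**
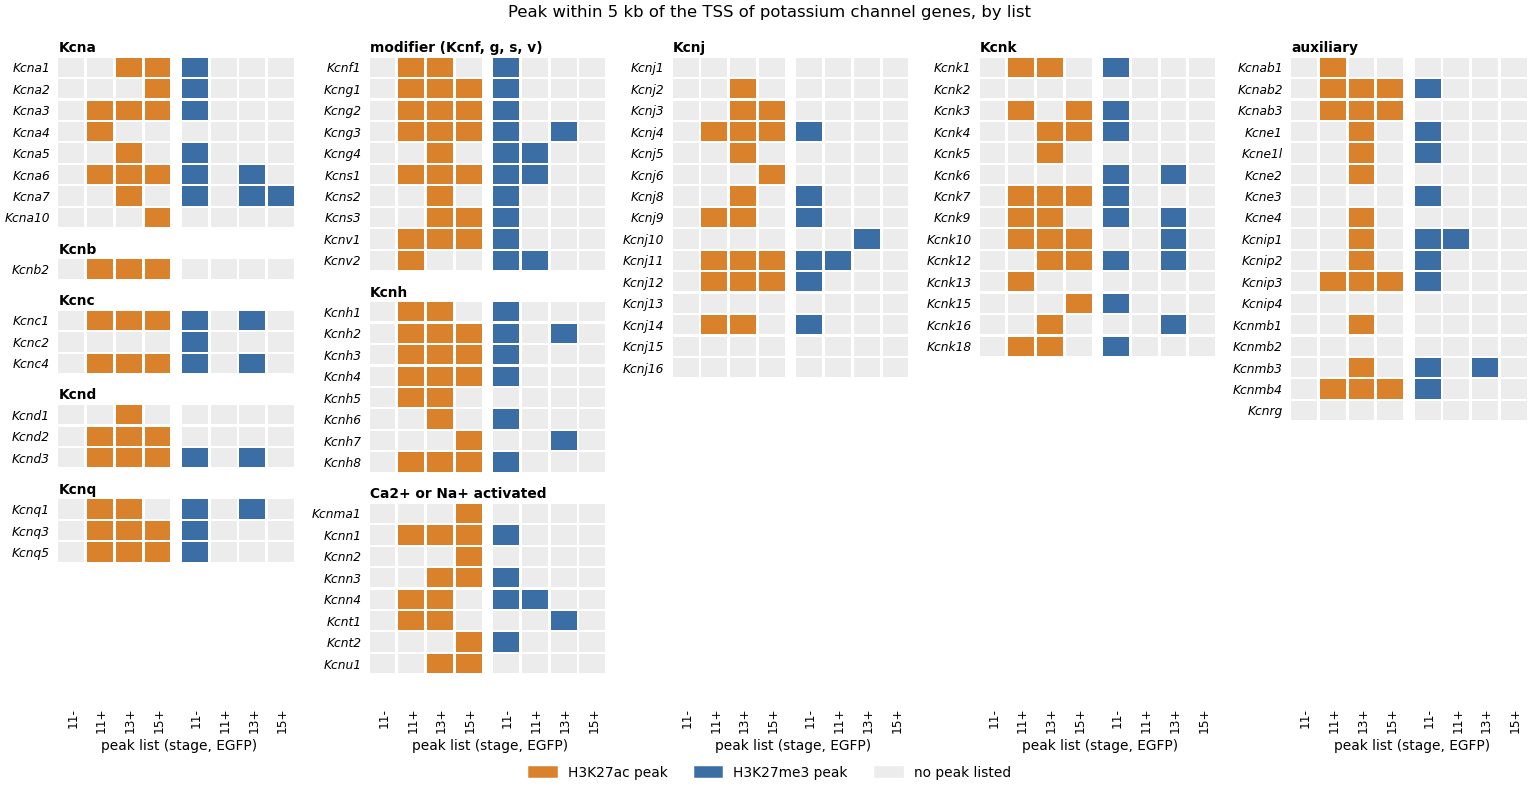
Each row is a Kcn gene reported here by name, grouped by subfamily, and each column a peak list: the stage and the EGFP- or EGFP+ cells, H3K27ac on the left (orange) and H3K27me3 on the right (blue). A filled tile is a peak within 5 kb of the TSS. The first column is empty in every row, and the H3K27me3 column of E11.5 EGFP- cells is filled in most rows. Voltage-gated genes as a group fill a larger share of the EGFP+ H3K27ac columns than the other members, but not every subfamily does.

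The voltage-gated genes, modifiers included, made up 40 of the 94 members. H3K27ac marked 27 of the 40 at E11.5 (67.5%, interval 52 to 79.9%), 33 at E13.5 (82.5%, interval 68.1 to 91.3%) and 27 at E15.5 (67.5%, interval 52 to 79.9%). Among the other 54 members it marked 20 (37%, interval 25.4 to 50.4%), 35 (64.8%, interval 51.5 to 76.2%) and 21 (38.9%, interval 27 to 52.2%). The intervals of these groups overlapped at E13.5. Over all genes the shares were 49.9, 60.9 and 52.3% by stage. H3K27ac at all 3 stages was seen in 20 of the 40 (50%) and in 10 of the 54 (18.5%), against 33.1% of all genes. H3K27ac at no stage was seen in 1 (2.5%) and 11 (20.4%), against 25.6%. H3K27me3 of EGFP- cells marked 32 of the 40 (80%) and 28 of the 54 (51.9%), against 48.2% of all genes. These shares rest on genes that are partly close paralogs, and are a description of the lists.

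Kcnc channels open at high voltage and close fast, which lets neurons fire at high rates. Kcnc1 and Kcnc4 had H3K27ac at all 3 stages, H3K27me3 in EGFP- cells and H3K27me3 again at E13.5. The peaks of Kcnc1 (ENSMUSG00000058975, TSS at base 46396497 of chromosome 7) summed to 721 bp of H3K27ac at E11.5, 1732 bp at E13.5 and 842 bp at E15.5, the largest total of any member at 3295 bp. Its E15.5 peak, chr7:46396425-46397266, covered the TSS, as did its E11.5 peak. Kcnc2, found in fast-spiking interneurons, had no H3K27ac at any stage, and its sole TSS peak was H3K27me3 in EGFP- cells. When any annotated transcript start was allowed in place of the 5′ end, Kcnc2 gained H3K27ac at E15.5.

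Kcnb channels carry the slow delayed rectifier current of the soma. Kcnb2 was acetylated at all 3 stages (693, 305 and 886 bp of H3K27ac by stage) and had no H3K27me3 in EGFP- cells. Kcnd channels carry the fast A-type current of dendrites. Kcnd3 (367, 823 and 1023 bp) and Kcnd2 (143, 653 and 921 bp) were acetylated throughout with more sequence at each later stage, and Kcnd1 at E13.5 alone (144 bp).

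Kcnq channels carry the M current, which holds back repetitive firing. Kcnq3 had 461, 278 and 986 bp of H3K27ac by stage and Kcnq5 264, 270 and 1137 bp. Both had more acetylated sequence at E15.5 than at the earlier stages. Kcnq1, the slow delayed rectifier of heart and inner ear, was acetylated at E11.5 and E13.5.

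Kcna channels sit along axons and keep the threshold for spikes high. All 8 members were acetylated at some stage, in counts of 3, 5 and 5 by stage, but at every stage only Kcna3 (628, 156 and 1117 bp) and Kcna6 (545, 309 and 642 bp). Kcna1 and Kcna2, the main axonal pair of the adult brain, were not acetylated at E11.5. Kcna1 had 275 bp at E13.5 and 193 bp at E15.5, and Kcna2 had 629 bp at E15.5 alone. Kcna4 was the member of this subfamily with a peak at E11.5 alone (195 bp).

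Kcnh channels include the ether-a-go-go and hERG types, which repolarize slowly. H3K27ac marked 6, 7 and 5 of 8 members by stage, and 4 at all 3 stages: Kcnh3 (2135 bp in sum over the stages), Kcnh8 (1916 bp), Kcnh2 (1821 bp) and Kcnh4. The TSS of Kcnh4 lies 2989 bp from that of Hcrt. Its upstream peaks, all at E13.5, were nearer to the TSS of Hcrt, and its other peaks were nearest to Kcnh4. To which gene a peak belongs was not tested. Kcnh7 had H3K27ac at E15.5 alone, a 544 bp peak over the TSS, and an H3K27me3 peak of 119 bp at the same place at E13.5.

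Modifier subunits do not open on their own and alter the Kcnb channels they join. All 10 had H3K27me3 in EGFP- cells, the fullest count of any subfamily of more than 4 genes. All 10 were acetylated in EGFP+ cells at some stage, Kcnv2 at E11.5 alone. H3K27ac marked 7, 9 and 6 of them by stage and 5 at every stage, led by Kcns1 (1364 bp in sum), Kcng3 (1324 bp) and Kcng1 (897 bp). With 10 genes the interval for the H3K27me3 share ran from 72.2 to 100%.

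Outside the voltage-gated genes H3K27ac was less frequent at each stage for the members as a group, but not in every subfamily. Channels opened by calcium or sodium stood at 37.5, 62.5 and 75% by stage, against 67.5, 82.5 and 67.5% of voltage-gated genes. Among the latter, Kcna stood at 37.5, 62.5 and 62.5%, against 37, 64.8 and 38.9% of the members outside the voltage-gated genes. Of 15 inward rectifiers, 5, 9 and 5 had H3K27ac by stage, and 4 had no peak of either mark in any list. Kcnj4 (441, 1168 and 248 bp), Kcnj12 (344, 374 and 417 bp) and Kcnj11, the pore of the ATP-sensitive channel (254, 419 and 413 bp), were acetylated at all 3 stages. Of the genes for G protein-gated channels, which transmitters open, Kcnj3 gained H3K27ac at E13.5 (365 bp) and widened at E15.5 (1410 bp), Kcnj6 had it at E15.5 alone (196 bp, and at E11.5 too with any annotated start), Kcnj9 at E11.5 and E13.5, and Kcnj5, mainly of the heart, at E13.5 alone. Kcnj10, the inward rectifier of astrocytes, had no H3K27ac at any stage and a 144 bp H3K27me3 peak at E13.5, 4810 bp from its TSS.

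Tandem-pore channels pass the leak current that sets the resting potential. H3K27ac marked 7, 9 and 6 of 14 by stage, and Kcnk10 (746, 139 and 1840 bp) and Kcnk7 (186, 623 and 921 bp) at all 3 stages. The 1840 bp peak of Kcnk10 at E15.5 was the widest at any member, and lay 2758 bp from the TSS within the gene. Kcnk3 was acetylated at E11.5 and E15.5, Kcnk13 at E11.5 alone in 3 peaks (780 bp in sum), and Kcnk15 at E15.5 alone (283 bp). Kcnk2 had no peak at its 5′ end in any list, but H3K27ac at all 3 stages at another annotated start.

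Channels opened by calcium or sodium shape the pause after a spike. They were acetylated in 3, 5 and 6 of 8 by stage. Kcnn1, a small-conductance calcium-activated channel, was acetylated throughout (692, 523 and 1706 bp), and Kcnn3 from E13.5 on (395 and 1027 bp). Kcnma1, the large-conductance channel, Kcnn2 and the sodium-activated Kcnt2 had H3K27ac at E15.5 alone (263, 426 and 221 bp). For Kcnma1 and Kcnn2 this holds for the 5′ end only, since with any annotated start both were acetylated at all 3 stages. Kcnu1, a sperm channel, was acetylated at E13.5 and E15.5, 1929 bp from the TSS of the widely used gene Ash2l.

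The 17 auxiliary genes were acetylated in 5, 12 and 4 cases by stage. Kcnab2 (632, 1323 and 1205 bp) and Kcnab3, whose products bind Kcna channels, were acetylated at all 3 stages and Kcnab1 at E11.5 alone (149 bp, and at E13.5 too with any annotated start). Another TSS lay 1165 bp from that of Kcnab2 and 2278 bp from that of Kcnab3. The Kcnab3 peaks of E11.5 and E15.5 were nearer to the TSS of Trappc1 and of Cntrob, and only those of E13.5 were nearest to Kcnab3. Kcnmb4, the neuronal partner of Kcnma1, was acetylated throughout (907, 535 and 1205 bp), and Kcnip3 as well. The Kcne genes, whose single-span proteins slow channels of heart and epithelia, had H3K27ac in 0, 4 and 0 of 5 by stage. Kcnip2, a calcium sensor that binds Kcnd channels, had H3K27me3 in EGFP- cells (398 bp) and H3K27ac at E13.5 alone, in 6 peaks that summed to 1269 bp. With any annotated start Kcnip2 had H3K27ac at E15.5 too.

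Members taken as known for a role in neurons differed in these lists from members taken as used mainly outside the nervous system. The latter 19 were Kcna5, Kcna7, Kcna10, Kcne1, Kcne2, Kcne3, Kcnj1, Kcnj5, Kcnj8, Kcnj11, Kcnj13, Kcnj15, Kcnj16, Kcnk5, Kcnk16, Kcnk18, Kcnn4, Kcnq1 and Kcnu1. This grouping was not tested, and some of the 19 may also act in neurons. Of 38 neuronal members, H3K27ac marked 23 at E11.5 (60.5%, interval 44.7 to 74.4%), 25 at E13.5 (65.8%) and 27 at E15.5 (71.1%, interval 55.2 to 83%). Of 19 non-neural members it marked 4 at E11.5 (21.1%, interval 8.51 to 43.3%), 13 at E13.5 (68.4%) and 3 at E15.5 (15.8%, interval 5.52 to 37.6%). The intervals lay narrowly apart at E11.5 (upper end 43.3%, lower end 44.7%), did not overlap at E15.5, and overlapped at E13.5. All genes lay in between at E11.5 and E15.5, at 49.9% and 52.3%. Both lists of members were chosen with earlier results of these data known, so the gap between them is a description and not a test. H3K27ac at all 3 stages was seen in 15 of the 38 (39.5%) and in 1 of the 19, Kcnj11 (5.26%), against 33.1% of all genes.

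The E13.5 list thus held non-neural genes that the other stages did not. Of the 19 non-neural members 8 were acetylated at E13.5 alone (42.1%, all genes 12.3%): Kcna5, Kcna7, Kcne1, Kcne2, Kcnj5, Kcnj8, Kcnk16 and Kcnk5. Of the 38 neuronal members 2 were, Kcnip1 and Kcnip2 (5.26%), and 0 with any annotated start, since both then had H3K27ac at E15.5 too. The 8 non-neural members stayed at E13.5 alone under that setting. When the window was narrowed to 1 kb, non-neural members at E13.5 fell to 6 of 19 (31.6%) while neuronal members stood at 20 of 38 (52.6%). As given above, the same list marked 38 of 39 Hox genes.

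Neuronal genes acetylated at E15.5 alone numbered 6 of 38 (15.8%, all genes 4.09%), namely Kcna2, Kcnh7, Kcnj6, Kcnma1, Kcnn2 and Kcnt2. At E11.5 alone there were 2, Kcna4 and Kcnab1 (5.26%, all genes 2.48%). The neuronal members without H3K27ac at any stage were Kcnc2, Kcnip4 and Kcnk2 (7.89%, all genes 25.6%). With any annotated start these classes shrank. Those at E15.5 alone numbered 4 (Kcna2, Kcnc2, Kcnh7 and Kcnt2), those at E11.5 alone 1 (Kcna4) and those at no stage 1 (Kcnip4), while 21 were acetylated at all 3 stages. H3K27me3 of EGFP- cells marked 24 of the 38 neuronal (63.2%, interval 47.3 to 76.6%) and 9 of the 19 non-neural members (47.4%, interval 27.3 to 68.3%). Both intervals held the share over all genes, 48.2%.

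**Figure D3:**
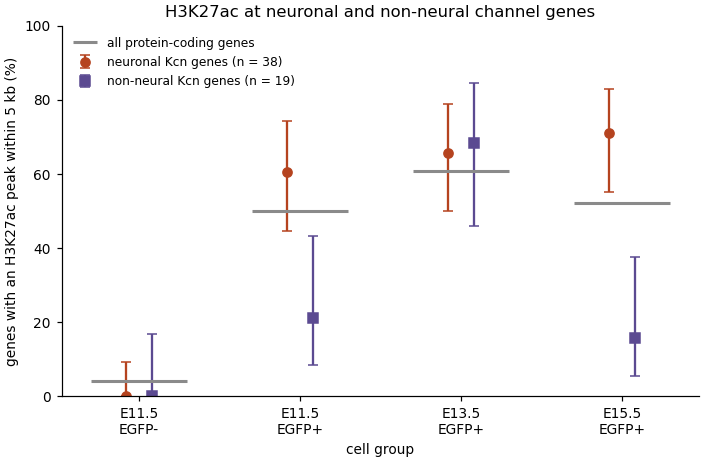
Share of genes (%) with an H3K27ac peak within 5 kb of the TSS by cell group, with Wilson 95% intervals. Circles are 38 Kcn genes taken as known for a role in neurons, and squares 19 taken as used mainly outside the nervous system. Grey lines give all protein-coding genes. The groups stood apart at E11.5 EGFP+ (60.5% and 21.1%) and E15.5 (71.1% and 15.8%) and together at E13.5 (65.8% and 68.4%).

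Both marks at the same start were few. At E11.5 they met in EGFP+ cells at 4 members, Kcnj11, Kcnn4, Kcns1 and Kcnv2 (4.26%, all genes 3.56%), and Kcng4 and Kcnip1 had H3K27me3 without H3K27ac. All 6 had H3K27me3 in EGFP- cells as well. Kcnv2, a modifier known from photoreceptors, had 554 bp of H3K27ac and 743 bp of H3K27me3 at E11.5 and no peak later. The peaks of both marks overlapped in Kcnj11, Kcnn4 and Kcnv2 (all genes 51.8%), and those of Kcnn4, the intermediate-conductance channel of blood cells, lay 125 and 70 bp from its TSS. With any annotated start, 15 members had H3K27me3 at E11.5 and 11 had both marks.

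At E13.5 both marks lay at 15 members (16%, all genes 8.39%), among them Kcnc1 and Kcnc4, and 3 had H3K27me3 alone, Kcnh7, Kcnj10 and Kcnk6. In 7 of the 15 the peaks of both marks overlapped (46.7%, interval 24.8 to 69.9%, all genes 59.3%). At E15.5 no member had both (0.752% of all genes), and the 1 member with H3K27me3 was Kcna7, a channel of muscle, with a 141 bp peak in an intron. Its peaks of H3K27me3 at E13.5 (270 bp in 2 peaks) were centred in coding exons on either side of that peak.

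H3K27ac peaks gathered just downstream of the TSS and were narrow. In EGFP+ cells 64, 147 and 65 peaks lay within 5 kb of a member by stage, of median width 211, 190 and 378 bp, against 280, 204 and 480 bp for peaks at all genes. The centre lay within 1 kb of the TSS for 40 of 64, 67 of 147 and 47 of 65 peaks. The E13.5 peaks were thus more numerous and more spread out. In 23 of the 32 members with H3K27ac at both E11.5 and E15.5 the peaks overlapped (71.9%, interval 54.6 to 84.4%), against 88.8% of all genes in both lists. The 92 H3K27me3 peaks of EGFP- cells were placed alike, 54 of them centred within 1 kb.

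**Figure D4:**
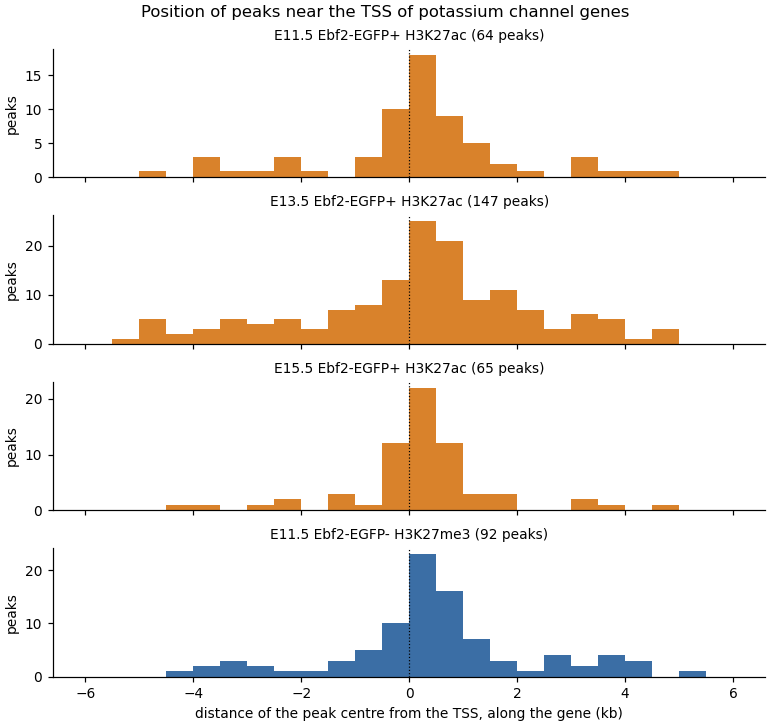
Number of peaks by distance of the peak centre from the TSS of a Kcn gene (kb, positive in the direction of transcription, bins of 0.5 kb) for the H3K27ac lists of EGFP+ cells and the H3K27me3 list of EGFP- cells. Each list peaked just downstream of the TSS, and the 147 peaks of E13.5 were the most spread out, with 67 centred within 1 kb.

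Distal peaks, over 5 kb and up to 100 kb from the TSS, had shares at channel genes near those over all genes. H3K27ac lay there in 9.57, 80.9, 97.9 and 81.9% of members (EGFP-, then EGFP+ by stage), against 14.2, 85.7, 96.8 and 80.1% of all genes. H3K27me3 lay there in 90.4, 52.1, 55.3 and 18.1%, against 90.7, 47.8, 48.1 and 13%. Of the 12 members without H3K27ac near the start, Kcnk6 had 19, 45 and 9 distal H3K27ac peaks by stage, while Kcnj16, Kcnmb2 and Kcnip4 had at most 3 at any stage.

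The medians of start sequence differed in the same direction as the picked pairs printed above, but single members did not all follow. In the 300 bases from 250 before to 50 after the GENCODE start, members held a median of 10.5 CpG dinucleotides, against 11 over all genes. Members acetylated at all 3 stages held a median of 21.5 (range 4 to 51), against 22 for all genes of that pattern. Members acetylated at E13.5 alone held a median of 9 and those at no stage 5 (range 1 to 30), against 6 and 2. The ranges at all 3 stages and at no stage thus overlapped. Neuronal members held a median of 18 and non-neural members 5. The relation of CpG content to acetylation was thus the general one, and its part in the difference between neuronal and non-neural members was not tested.

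**Figure D5:**
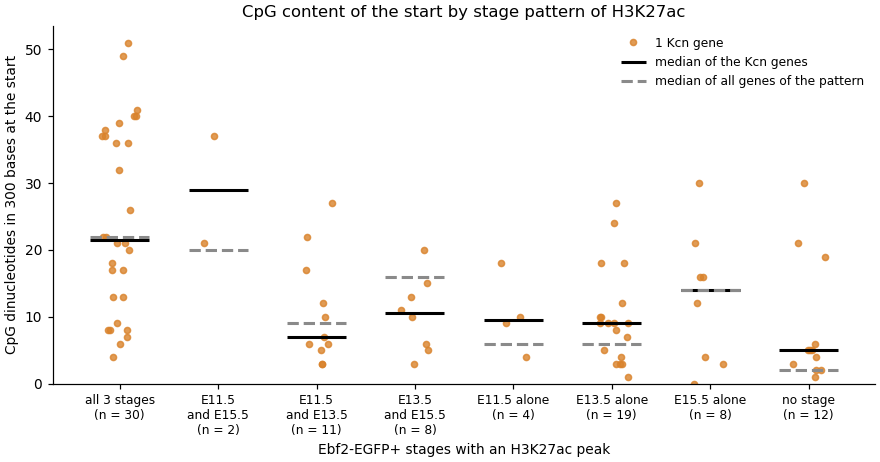
CpG dinucleotides in 300 bases at the GENCODE start of each Kcn gene (points), by the EGFP+ stages at which it had an H3K27ac peak. Black lines are medians of the Kcn genes and dashed grey lines medians of all protein-coding genes of the same pattern. Genes acetylated at all 3 stages had the highest median among patterns of more than 2 Kcn genes (21.5) and those at no stage the lowest (5).

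Motifs of a repressor and an activator of neuronal genes were searched on both strands within 5 kb of each TSS. The 9-base part TTCAGCACC of the site of REST, which silences neuronal genes outside neurons, lay in 22 of the 94 member windows (23.4%), against 11.4% of all genes. It lay in 17 of the 60 with H3K27me3 in EGFP- cells (28.3%) and in 5 of the 34 without (14.7%). The same split over all genes was not computed. Member windows with that H3K27me3 also held more CpG dinucleotides (median 200) than those without (median 134). The core CCCNNGGG of EBF factors, N being any base, lay in 93.6% of member windows and in 86% of all. Matches of such short motifs are descriptions of sequence and not binding sites.

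Other excitability genes gave a measure of comparison. Of 13 sodium channel genes, 4, 10 and 6 had H3K27ac in EGFP+ cells by stage, and 7 had H3K27me3 in EGFP- cells. Of 26 calcium channel genes, 16, 20 and 13 had H3K27ac and 18 had that H3K27me3. Of 24 partners of potassium channels, such as Dpp6 and Cntnap2, 13, 17 and 14 had H3K27ac and 16 that H3K27me3. In all of these lists the count was highest at E13.5, as it was over all genes and over the 94 potassium channel genes (47, 68 and 48).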

How the data were processed

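ChIP-seq libraries of H3K27ac and H3K27me3 from sorted Ebf2-EGFP cells were aligned by the authors to mm10 with Bowtie 1.1.2 on Galaxy, and peaks were called with MACS. The MACS version, and how replicates were combined into 1 list, are not given in the sources used here. The lists that the authors deposited hold a position and a score for each peak, and the score was 0 throughout, so presence, position and width alone were used. Starts were taken as counted from 0. Peaks were placed against GENCODE M21 genes on GRCm38 in Python 3.11.15 with pandas 2.3.3 and SciPy 1.17.1, and the counting of peaks within a window was tested on simulated data. Depth is unknown, and intervals cover counting over genes only. Promoter sequences were from RefSeq (GRCm38.p6), which listed 69 of the 94 members, and CpG counts for all 94 came from the genome. The members and gene lists were chosen with earlier results of these data known. Genes are named by a rule: the top 3 of each subfamily by H3K27ac sequence at all 3 stages, members with H3K27me3 in EGFP+ cells at E11.5 or E15.5, those acetylated at E11.5 alone or E15.5 alone, Kcnip2, and classes of up to 5 genes. Other members named were chosen after their values were seen. Alternatives were another window, other starts, nearest gene, wider peaks, equal list lengths, isolated members, autosomes and a shorter distal limit. Some members are not reported here by name, and stand in the counts alone.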

Additional observations from a re-analysis of the deposited data

How the results depend on the processing

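Of 169 values recomputed under other settings, 109 stayed within the Wilson interval of the value reported and 60 left it. Counting a peak for its nearest TSS alone, or using chromosomes 1 to 19, moved none. The alternatives for the neuronal, non-neural and voltage-gated members were added after the data were seen.

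With a window of 1 kb, H3K27ac marked 38.3% of members at E11.5 and 51.1% at E13.5 in EGFP+ cells (all genes 40.6% and 44.5%), and 19.1% at all 3 stages. H3K27me3 then marked 46.8% in EGFP- cells (all genes 36.2%), 8.51% at E13.5 (all genes 5.34%) and 0% at E15.5 (all genes 0.451%), and both marks met in 7.45% at E13.5. At E13.5 H3K27ac marked 31.6% of non-neural and 67.5% of voltage-gated members.

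With any annotated transcript start, H3K27me3 marked 16% and both marks 11.7% of members at E11.5 in EGFP+ cells, and H3K27ac marked 81.6% of neuronal members at E13.5 and 84.2% at E15.5. Without the members that have another TSS within 10 kb, H3K27me3 at E15.5 fell to 0%, since Kcna7 was left out.

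With peaks of at least 300 bp, H3K27ac marked 21.3, 27.7 and 34% of members by stage of EGFP+ cells (all genes 28.9, 23 and 42.6%), and 8.51% at all stages. H3K27me3 marked 28.7% in EGFP- cells (all genes 16.8%) and 1.06, 1.06 and 0% in EGFP+ cells by stage (all genes 0.242, 0.62 and 0.128%), and both marks 1.06% at E11.5 and 0% at E13.5. Of members with H3K27me3 in EGFP- cells, 29.6% had H3K27ac at E11.5. Neuronal members then stood at 31.6, 36.8 and 50%, non-neural members at 0, 10.5 and 5.26%, and voltage-gated members at 27.5, 42.5 and 47.5%.

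With every list of a mark lowered to the length of its shortest by keeping the widest peaks, few members were left. H3K27ac marked 3.19, 2.13 and 3.19% by stage (all genes 6.25, 1.39 and 6.87%) and 0% at all stages. H3K27me3 marked 3.19% in EGFP- cells and 3.19% at E13.5 (all genes 2.98% and 2.68%). Both marks met in 0% at E11.5 and 1.06% at E13.5, and 0% of members with H3K27me3 in EGFP- cells had H3K27ac at E11.5. Neuronal members stood at 5.26, 5.26 and 7.89%, non-neural members at 0, 0 and 0%, and voltage-gated members at 2.5, 5 and 0%. At that length the excess of H3K27me3 at channel genes in EGFP- cells and at E13.5 was not detectable.

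With a distal limit of 50 kb, H3K27ac lay near 4.26, 64.9, 87.2 and 63.8% of members (EGFP-, then EGFP+ by stage) and H3K27me3 near 75.5, 36.2, 41.5 and 10.6%.

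No paired analysis was possible because each group was deposited as 1 list. Leaving out a replicate was not run for the same reason. Depth is unknown and the lists differ widely in length, so a gene without a listed peak is not shown to lack the mark.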
